A study of Mus musculus with 4 samples.

Results

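The genes described here hold back or permit cell division: the GADD45 stress genes Gadd45a, Gadd45b and Gadd45g, the CDK (cyclin-dependent kinase) inhibitor genes Cdkn1a and Cdkn1b, the p53 regulator Mdm2, the antiproliferative genes Btg1 and Btg2, and the D-type cyclins Ccnd2 and Ccnd3. These 10 genes were chosen by symbol with their differences between the groups already known, so those differences are given as a description and support nothing. The symbols matched 11 of 23657 named loci, since Ccnd3 had 2, and all 11 were among the 11020 loci tested, which had an FPKM (fragment counts scaled for transcript length and for sequencing depth) of at least 1 in at least 2 libraries. In the libraries Gadd45b, Cdkn1a, Ccnd2, Gadd45g and Btg1 were higher after immunization, Btg2 and the lesser Ccnd3 locus were lower, and Gadd45a, Cdkn1b, Mdm2 and the main Ccnd3 locus did not pass the threshold. Gadd45b, Cdkn1a and Ccnd2 passed under all 14 alternative ways of processing. Btg2 and the lesser Ccnd3 locus passed under 12 of these, Gadd45g under 10 and Btg1 under 6.

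Conventional dendritic cells that carry CD4 were sorted from mouse spleens as CD11c+, I-Ab+, CD4+ and CD8-, at a stated purity above 99%. The mice had received either PBS (phosphate-buffered saline, 100 uL) or SRBC (sheep red blood cells, 1000000000 cells), each for 1 h, and there were 2 libraries per group, 4 in all. Every mouse, controls included, was C57BL/6 and heterozygous for GPR183, and no wild type is analysed here. The labels give neither age nor sex, nor whether a library stands for 1 mouse or a pool, so the spread on which the p-values rest may be only technical.

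GADD45 proteins are small, acidic and without enzyme activity, and act by binding partners: in human cells they activate the kinase MTK1 (Map3k4 in mouse), which feeds the p38 and JNK stress kinases, and they bind PCNA and CDK1. The protein p53 switches on Cdkn1a, whose product p21 blocks the kinases that start DNA replication, and also Mdm2, whose product marks p53 for destruction. BTG proteins recruit the CCR4-NOT deadenylase, which shortens the poly(A) tails of messenger RNAs, and D-type cyclins activate CDK4 and CDK6 against the retinoblastoma protein.

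The sort and the libraries were checked first. Itgax, which encodes CD11c, lay between 180 and 253 FPKM in the 4 libraries, Cd4 between 75.8 and 96.4, and Cd8a between 1.20 and 2.63. H2-Ab1, which encodes a chain of I-Ab, lay at 4440 and 3905 in the PBS libraries and 7751 and 8908 in the SRBC libraries, and of 9 marker loci of the sorted cell 3 were called higher and 1 lower. Gpr183 lay at 21.9 and 18.6 with PBS, against 70.8 and 73.3 with SRBC. Xist lay at 0.210 and 0.327 in the PBS libraries and at 339 and 306 in the SRBC libraries, and Eif2s3y, a Y-linked gene, at 31.4 and 38.4 against 0.113 and 0.0547, so that sex and treatment cannot be told apart for any gene below, although all 10 lie on autosomes. Summed FPKM was 410321 and 377167 in the PBS libraries, against 509007 and 558016 in the SRBC libraries, so the deposited scale itself differed between the groups. Depth, estimated from the lowest steps in the values, ran from 8220000 to 9020000 fragments. The sums of the marker lists of other cells spanned 21.5 to 44.3 FPKM for 6 B cell loci, 3.67 to 10.3 for 6 T cell loci, 35.5 to 129 for 5 plasmacytoid cell loci, 5.80 to 87.7 for 5 neutrophil loci and 113 to 152 for 6 macrophage loci. Of the 4 tested neutrophil loci 2 were called higher. The neutrophil sums were 59.0 and 5.80 after PBS, then 38.1 and 87.7 after SRBC, and overlapped between the groups. Some lists moved with the groups: the 5 erythroid loci summed to 62.4 and 12.3 after PBS and to 109 and 189 after SRBC (3 called higher), the 5 NK cell loci to 91.6 and 115, then 56.4 and 71.5 (1 called lower), and the 5 loci of CD8+ dendritic cells to 36.2 and 32.1, then 20.3 and 25.1 (1 called lower). The part of these lists in the results below was not tested. Themis, Mpo, Elane, Camp and Klf1 were listed at 0 in at least 1 library.

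Promoter sequence was available for 9 of the 10 genes, from RefSeq on GRCm38.p6, as windows of 250 bases before and 50 after a transcription start. Those of the GADD45 genes, of Cdkn1a and of Btg2 are shown, because the contrasts within the GADD45 family and between Cdkn1a and Btg2 carry the results. Capitals mark TATAAA and CACGTG in Gadd45b and Gadd45g, matches to the p53 motif in Gadd45a and Cdkn1a, and CCAAT and TGACGTCA in Btg2. CCAAT is also present in the windows of Gadd45a, Gadd45b and Gadd45g, where it is left in lower case.
Gadd45b (chr10:80929841-80930140, plus strand): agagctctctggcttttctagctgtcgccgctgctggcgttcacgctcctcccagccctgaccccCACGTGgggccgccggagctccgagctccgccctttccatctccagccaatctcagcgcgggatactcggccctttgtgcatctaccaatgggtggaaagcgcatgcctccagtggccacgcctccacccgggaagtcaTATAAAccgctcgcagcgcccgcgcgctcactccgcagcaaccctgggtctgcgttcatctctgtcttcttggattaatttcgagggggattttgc
Gadd45g (chr13:51846425-51846724, plus strand): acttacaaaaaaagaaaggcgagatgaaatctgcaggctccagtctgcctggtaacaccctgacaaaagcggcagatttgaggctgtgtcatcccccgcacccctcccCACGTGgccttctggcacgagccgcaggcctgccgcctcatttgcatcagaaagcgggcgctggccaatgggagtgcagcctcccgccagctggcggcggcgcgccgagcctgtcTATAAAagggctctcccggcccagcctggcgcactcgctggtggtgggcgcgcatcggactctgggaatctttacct
Gadd45a (chr6:67037358-67037657, minus strand): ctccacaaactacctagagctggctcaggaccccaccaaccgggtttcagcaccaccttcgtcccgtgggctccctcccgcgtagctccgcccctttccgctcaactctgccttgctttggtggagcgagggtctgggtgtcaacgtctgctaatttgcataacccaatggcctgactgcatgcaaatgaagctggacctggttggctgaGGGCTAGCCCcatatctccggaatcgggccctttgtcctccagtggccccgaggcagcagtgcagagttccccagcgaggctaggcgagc
Cdkn1a (chr17:29090729-29091028, plus strand): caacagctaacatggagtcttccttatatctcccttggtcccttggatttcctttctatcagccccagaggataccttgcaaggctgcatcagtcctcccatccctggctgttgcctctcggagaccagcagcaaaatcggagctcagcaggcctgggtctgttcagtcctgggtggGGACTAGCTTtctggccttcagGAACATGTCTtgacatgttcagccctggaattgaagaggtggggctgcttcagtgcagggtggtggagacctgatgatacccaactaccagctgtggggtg
Btg2 (chr1:134079106-134079405, minus strand): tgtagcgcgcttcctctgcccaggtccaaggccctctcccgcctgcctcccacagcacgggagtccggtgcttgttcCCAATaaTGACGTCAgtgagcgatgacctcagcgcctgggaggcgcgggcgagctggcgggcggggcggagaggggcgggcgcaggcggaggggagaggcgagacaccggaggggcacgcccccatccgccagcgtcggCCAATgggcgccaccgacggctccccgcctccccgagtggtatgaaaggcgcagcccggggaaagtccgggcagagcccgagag

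In all, 8 motifs were searched on both strands of 11 windows of these genes, and no match overlapped another. TATAAA, the TATA box, was present in Gadd45b (bases 205 to 210 of the window), Gadd45g (224 to 229) and Btg1 (225 to 230), and in 13.6% of all 32851 windows in the table. CACGTG, an E-box, was present in Gadd45b (66 to 71) and Gadd45g (109 to 114) and in 7.15% of all windows. Both motifs together were found in 0.67% of all windows, and Gadd45a held neither. TGACGTCA, the cAMP response element, was present in Btg2 (85 to 92) and in 1.79% of all windows. The p53 motif was searched as the single unit RRRCWWGYYY (R for A or G, W for A or T, Y for C or T). This unit matched the Cdkn1a window shown at bases 178 to 187 and 200 to 209, and did not match the second Cdkn1a window (29093519 to 29093818). Gadd45a and Mdm2 matched once each, against 8.36% of all windows. A match to the unit is not read as a working p53 site, and which Cdkn1a start these cells use was not tested. CCAAT was held by 8 of the 11 windows and by 37.4% of all. The AP-1 motif TGANTCA, the NF-kB motif and the serum response element matched none of the 11 windows, against 7.81%, 8.46% and 1.63% of all. The windows do not reach distant elements.

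Gadd45b, a stress gene induced by NF-kB and TGF-beta signalling (chromosome 10, 80930073 to 80932204, GRCm38), measured 26.4 and 36.3 FPKM with PBS, against 379 and 415 with SRBC. Both SRBC libraries lay far above both PBS libraries, and the mean level went from 31.4 ± 6.97 (SD, n = 2) to 397 ± 25.3, a 12.7-fold difference. Its log2 fold change, always SRBC minus PBS in log2(FPKM + 1), given with the standard error (SE) of the limma fit, was 3.64 ± 0.22, which ranked 16 from the top among the 11020 tested loci. In bulk RNA such a difference cannot be told apart from a different number of cells of a type. Gadd45g, the family member induced by cytokines (chromosome 13, 51846678 to 51848468), measured 55.4 and 20.0 with PBS, against 89.8 and 109 with SRBC. The groups did not overlap, but the PBS libraries differed from each other 2.77-fold, and the log2 fold change of 1.54 ± 0.28 ran from 0.83 without PBS library 2 to 2.25 without PBS library 1. It did not pass with no filter or with median-of-ratios, upper-quartile or quantile rescaling. Gadd45a, a p53 target induced by DNA damage (chromosome 6, 67035096 to 67037457), measured 0.827 and 1.38 with PBS, against 0.227 and 1.32 with SRBC. Its groups overlapped, with a log2 fold change of -0.30 ± 0.32 that was 0.15 without SRBC library 1. These values stand for an estimated 8.89, 15.2, 2.38 and 13.3 fragments in the same order. With so few fragments the missing call is not read as a lack of difference in Gadd45a. The smallest difference detectable at this depth was not estimated.

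Within the family the balance differed between the groups. Gadd45b made up 32.0% and 62.9% of the summed GADD45 level in the PBS libraries and 80.8% and 78.9% in the SRBC libraries. Gadd45g made up 67.0% and 34.7%, then 19.1% and 20.8%, and Gadd45a at most 2.38%. The sum itself was 82.7 and 57.7 FPKM with PBS, against 469 and 526 with SRBC. The family member in the lead was thus Gadd45g in PBS library 1 and Gadd45b in the other 3 libraries.

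**Figure D1:**
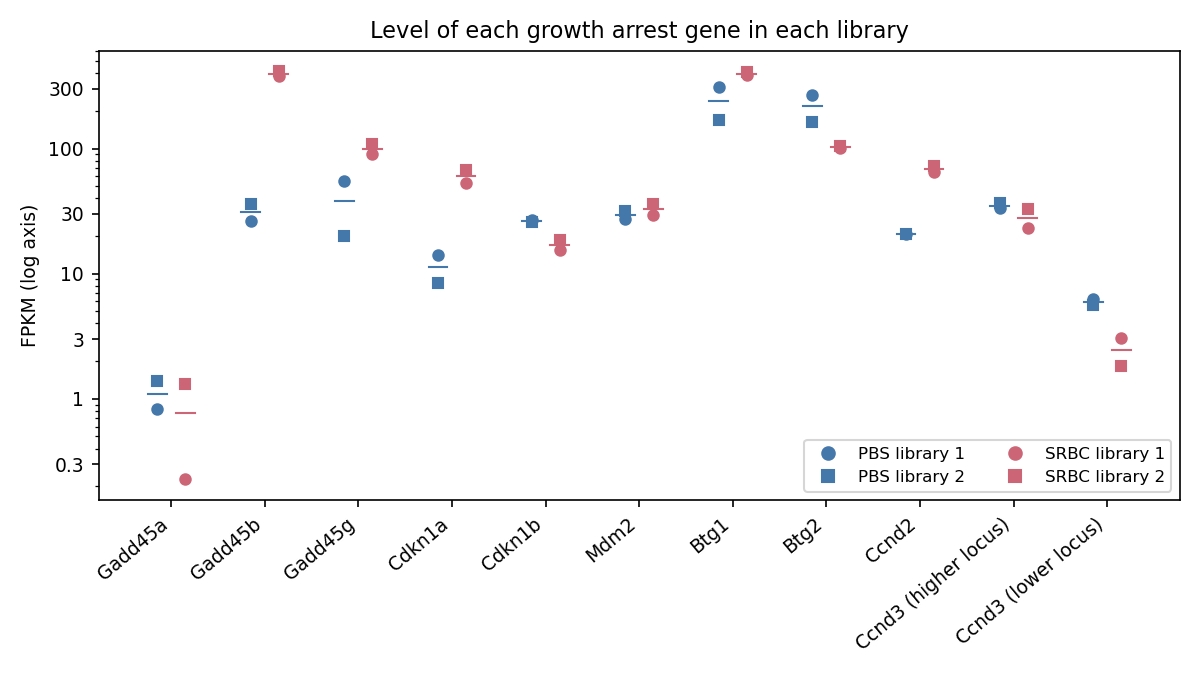
Level of the 11 loci of the 10 growth arrest genes in FPKM on a log axis, with 1 point per library (blue for PBS, red for SRBC, circles for library 1, squares for library 2) and a line at each group mean of 2 libraries. Gadd45b goes from 31.4 to 397 FPKM, Cdkn1a from 11.3 to 60.6 and Btg2 from 217 to 103, while the points of Mdm2 and Gadd45a overlap between groups.

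Cdkn1a, which encodes p21 (chromosome 17, 29090976 to 29100727), measured 14.1 and 8.46 FPKM with PBS, against 53.3 and 67.9 with SRBC. Every SRBC value was above both PBS values, with means of 11.3 ± 3.96 and 60.6 ± 10.3, a 5.38-fold difference and a log2 fold change of 2.36 ± 0.24. Cdkn1b, which encodes the related inhibitor p27 (chromosome 6, 134920401 to 134925513), measured 26.6 and 25.9 with PBS, against 15.6 and 18.4 with SRBC. Its SRBC values were both below the PBS values, with a log2 fold change of -0.60 ± 0.23 that did not pass on the deposited scale and did pass in 6 of 14 alternatives, among them all 4 rescalings of the libraries. Within each library, where library scaling cancels, the ratio of Cdkn1a to Cdkn1b was 0.529 and 0.326 with PBS, against 3.42 and 3.68 with SRBC. The inhibitor gene with the higher FPKM was therefore Cdkn1b in both PBS libraries and Cdkn1a in both SRBC libraries.

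Mdm2 (chromosome 10, 117688875 to 117710758) measured 27.3 and 31.5 FPKM with PBS, against 29.3 and 36.1 with SRBC. The groups overlapped, and the log2 fold change of 0.15 ± 0.23 changed sign under upper-quartile (-0.094), quantile (-0.23) and TPM (-0.28) rescaling, the last of which gives every library the same sum of levels. The ratio of Cdkn1a to Mdm2, both p53 targets, was 0.516 and 0.269 with PBS, against 1.82 and 1.88 with SRBC, so Cdkn1a was higher in SRBC libraries also relative to Mdm2.

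Btg2, a p53 target and early response gene (chromosome 1, 134075170 to 134079120), measured 270 and 164 FPKM with PBS, against 100 and 105 with SRBC. All SRBC values were below the PBS values, with means of 217 ± 74.7 and 103 ± 3.27 and a log2 fold change of -1.03 ± 0.24, which was -0.68 and did not pass without PBS library 1, and did not pass with no filter. Btg1, an antiproliferative gene abundant in resting lymphocytes (chromosome 10, 96617006 to 96622809), measured 313 and 169 with PBS, against 387 and 408 with SRBC. Its SRBC values were above the PBS values, but the log2 fold change of 0.79 ± 0.26 was 1.23 without PBS library 1 and 0.35 without PBS library 2, and it did not pass in 8 of 14 alternatives. The libraries with more Btg2 and more Btg1 were the same within the PBS group, and the ratio of Btg1 to Btg2 varied little within each group, at 1.16 and 1.03 after PBS and 3.86 and 3.89 after SRBC. Their summed level was 582 and 334 FPKM with PBS, against 487 and 513 with SRBC, and these groups overlapped.

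Ccnd2, the cyclin D2 gene (chromosome 6, 127125162 to 127152193), measured 20.7 and 20.9 FPKM with PBS, against 64.6 and 72.4 with SRBC. The groups were far apart and the libraries within each were close, with a 3.29-fold difference of means and a log2 fold change of 1.67 ± 0.22. Ccnd3, the cyclin D3 gene (chromosome 17, 47505051 to 47599691), had a main locus at 33.2 and 36.4 with PBS, against 23.0 and 32.7 with SRBC. Its SRBC values were both lower, but the means of 34.8 and 27.8 lay closer together than the SRBC libraries did, and the log2 fold change of -0.33 ± 0.23 passed under upper-quartile, quantile and TPM rescaling only. A lesser locus of the same name measured 6.22 and 5.63 with PBS, against 3.05 and 1.82 with SRBC, with a log2 fold change of -1.03 ± 0.28 that did not pass with no filter or without SRBC library 2 (-0.77). The files do not say which transcripts that locus holds, and without a statement on strand its reads cannot be assigned to cyclin D3 with certainty. Within libraries the ratio of Ccnd2 to main-locus Ccnd3 was 0.622 and 0.574 with PBS, against 2.81 and 2.22 with SRBC.

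**Figure D2:**
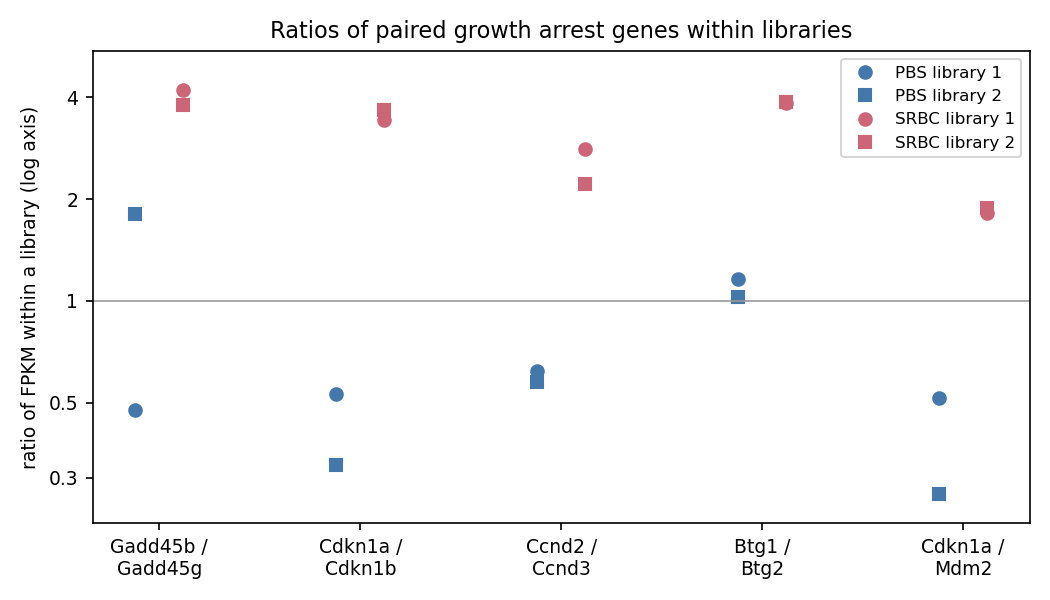
Ratio of FPKM between paired growth arrest genes within each library, on a log axis, with 1 point per library. In both PBS libraries Cdkn1a to Cdkn1b (0.529 and 0.326), Ccnd2 to Ccnd3 (0.622 and 0.574) and Cdkn1a to Mdm2 (0.516 and 0.269) lie below 1. Gadd45b to Gadd45g lies below 1 in PBS library 1 (0.477) and above 1 in PBS library 2 (1.81). Btg1 to Btg2 lies above 1 in both (1.16 and 1.03), and all SRBC points lie above 1.

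Against all loci, 5 of the 11 loci of the named genes were called higher and 2 lower, where a call is a limma adjusted p under 0.05, and of the 11020 tested loci 13.5% were called higher, 6.2% lower and 19.7% either way. Both SRBC libraries lay above both PBS libraries in 5 of the 11 loci and below in 4, against 34.3% and 24.7% of tested loci. Since the genes were chosen on this contrast, nothing is read from these counts. The median log2 fold change was 0.15 for the 11 loci and 0.070 for all tested loci. The share of calls that were higher, 68.5% as deposited, was 58.3% with median-of-ratios, 49.8% with quantile, 41.9% with upper-quartile and 27.6% with TPM rescaling, and the median of all tested loci was -0.14 under upper-quartile and -0.33 under TPM rescaling. Gadd45b, Cdkn1a and Ccnd2 were called under all 14 alternatives, with lowest log2 fold changes of 3.12, 1.99 and 1.26. In the authors' deposited table the q-value was 0.00101 for Gadd45b, Gadd45g, Cdkn1a, Btg2 and Ccnd2. The authors' deposited table gave 0.351 for Btg1, 0.0771 for Cdkn1b, 0.203 for the lesser Ccnd3 locus, 0.747 for the main one, 0.906 for Mdm2 and 1 for Gadd45a.

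**Figure D3:**
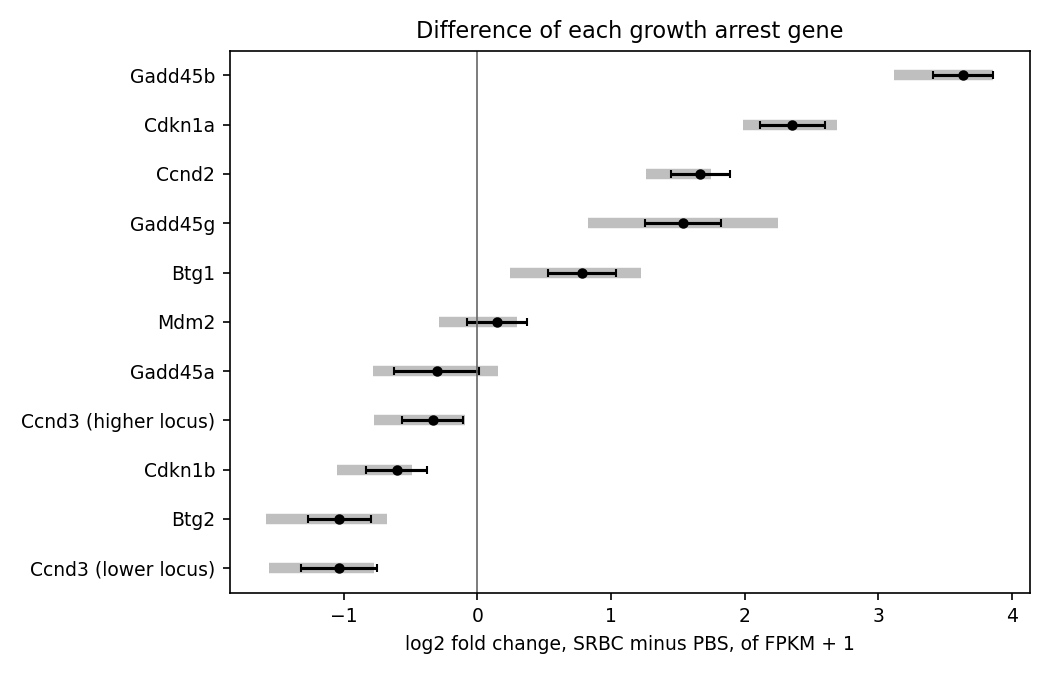
Log2 fold change of each locus, SRBC minus PBS in log2(FPKM + 1), as a point with its SE from the limma fit of 2 against 2 libraries, and as a grey bar the range over the alternative settings in which the locus passed the filter (11 for Gadd45a). The bars of Gadd45b, Cdkn1a and Ccnd2 reach no lower than 1.26, and those of Mdm2 (-0.28 to 0.29) and Gadd45a (-0.78 to 0.15) cross 0.

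The order of the levels in FPKM, which is scaled for transcript length, also differed. How far this order between genes depends on the annotation, which is not given, was not tested. After PBS, Btg1 (241 ± 101 FPKM) and Btg2 (217 ± 74.7) were highest with overlapping ranges, well above the rest. Below them Gadd45g, the main Ccnd3 locus, Gadd45b and Mdm2 followed at 37.7 to 29.4 FPKM, each overlapping its neighbour. Then came Cdkn1b, Ccnd2, Cdkn1a, the lesser Ccnd3 locus and Gadd45a, none of which overlapped the next in the order, although the wide range of Gadd45g also held Cdkn1b and Ccnd2 and the range of Gadd45b overlapped that of Cdkn1b. After SRBC, Btg1 (398 ± 14.8) and Gadd45b (397 ± 25.3) led with overlapping ranges, followed by Btg2 (103 ± 3.27) and Gadd45g (99.6 ± 13.9), which overlapped each other. Ccnd2 (68.5 ± 5.57) and Cdkn1a (60.6 ± 10.3) came next, also overlapping, and Mdm2, the main Ccnd3 locus, Cdkn1b, the lesser Ccnd3 locus and Gadd45a lay below.

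The PBS libraries differed from each other in several of these genes. PBS library 1 was higher than PBS library 2 by 2.77-fold in Gadd45g, 1.84-fold in Btg1, 1.66-fold in Cdkn1a and 1.64-fold in Btg2, ratios above those of 95.1% or more of the tested loci. All 18 tested genes of a list of immediate early genes, which cells switch on within minutes of a stimulus, were higher in PBS library 1, with a median ratio of 3.24, whereas 27.0% of tested loci were higher there and their median ratio was 0.846. Fosb, for example, measured 360 and 78.1 FPKM with PBS, against 55.7 and 41.6 with SRBC. PBS library 1 also held more of 5 of 6 B cell, 6 of 6 T cell, 5 of 5 plasmacytoid cell and 5 of 5 neutrophil loci. In the remaining lists it held more of 4 of 5 NK cell, 4 of 6 macrophage and 3 of 5 erythroid loci. For CD8+ dendritic cells this was 2 of 5 loci, and for the sorted cell 3 of 9. The SRBC libraries were uneven too: library 2 held more of 6 of 6 B cell, 6 of 6 T cell, 5 of 5 plasmacytoid cell and 4 of 5 neutrophil loci. SRBC library 2 also held more of 5 of 5 erythroid, 4 of 5 NK cell and 5 of 6 macrophage loci. The same held for 5 of 5 loci of CD8+ dendritic cells and 8 of 9 loci of the sorted cell itself. The share of all tested loci higher in SRBC library 2 was not counted. Summed FPKM of SRBC library 2 was also larger (558016 against 509007). The part of these differences in the results for Btg1, Btg2, Gadd45g and Cdkn1a was not tested. Gadd45b, Ccnd2 and Mdm2 had ratios of PBS library 1 to PBS library 2 of 0.728, 0.988 and 0.866.

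Of 131 further genes in 7 lists around these pathways, 121 loci were tested, of which 23 were called higher (19.0%) and 12 lower (9.92%), their median log2 fold change being 0.17. Over all 11020 tested loci these shares were 13.5% and 6.2% and the median 0.070, and the count of each list below is to be read beside them. The lists were chosen with earlier results of these data known. In the p53 list 6 of 27 loci were called higher (22.2%) and 3 lower (11.1%), with a median of 0.054. Trp53, which encodes p53 itself, measured 59.0 and 57.5 FPKM with PBS, against 93.8 and 103 with SRBC (log2 fold change 0.75 ± 0.22, limma adjusted p = 0.013, lost with quantile or TPM rescaling and on leaving out any library but SRBC library 1). Fas, a death receptor, rose 4.41-fold from 4.08 ± 0.972 to 18.0 ± 2.64 (limma adjusted p = 1.3e-06), Gdf15, a secreted stress cytokine, 4.96-fold (limma adjusted p = 2.8e-05) and Apaf1, the apoptosome scaffold, 2.13-fold (limma adjusted p = 7.0e-04, lost with TPM rescaling). Sesn1, a sestrin that restrains mTOR, fell from 22.8 ± 4.95 to 7.92 ± 0.812 (limma adjusted p = 7.1e-05). The other calls, named after their values were seen, were the polo-like kinases Plk2 and Plk3 as higher and Trp53inp1 and the DNA repair gene Xpc as lower. Mdm4, the partner of Mdm2, measured 43.9 and 61.7 with PBS, against 45.3 and 48.8 with SRBC and was not called.

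Among other CDK inhibitors 2 of 4 tested loci were called higher and 0 lower, with a median of 0.75. Cdkn2d, which encodes p19 (INK4d), rose 3.50-fold, from 9.45 and 8.74 FPKM to 28.4 and 35.3 (log2 fold change 1.69 ± 0.24, limma adjusted p = 2.0e-06, called under all 14 alternatives). Cdkn2b, which encodes p15, rose 2.23-fold from 3.05 ± 0.907 to 6.83 ± 0.660 (limma adjusted p = 0.013, not called in 5 of 14 alternatives, among them those without PBS library 1 or without either SRBC library). Cdkn2c averaged 8.68 ± 3.25, then 6.10 ± 1.31, and Cdkn3 2.95 and 3.83, then 4.27 and 6.51, and neither was called. Cdkn1c, the third relative of p21, and Cdkn2a were under the filter, at 0.538 FPKM or less in every library.

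In the list of D-type cyclin partners and the RB and E2F axis 1 of 21 loci was called higher (4.76%) and 1 lower (4.76%), with a median of 0.012. Cdk6 measured 11.8 and 14.8 FPKM with PBS, against 30.7 and 20.6 with SRBC (log2 fold change 0.88 ± 0.24, limma adjusted p = 0.0090, lost with no filter, without SRBC library 1 and with upper-quartile, quantile or TPM rescaling). Cdk4, the other kinase partner, measured 37.9 and 47.2, then 39.8 and 46.0, and was not called. A locus shared by Ccnd1 and a microRNA gene measured 242 and 247 with PBS, against 165 and 0 with SRBC. Whether that 0 is a failed estimate, and what part the short RNA has in the level, was not tested. The locus counted among the lower calls, but its call is not read as cyclin D1. That call was lost with no filter, with median-of-ratios, upper-quartile or quantile rescaling and with the replicate block. The log2 fold change of the locus was -4.25, and -0.57 without SRBC library 2, where the call was lost too. Rbl1 and E2f3 had log2 fold changes of -0.59 and 0.56 and were not called. In the list of S phase and mitosis 4 of 20 loci were called higher (20.0%) and 0 lower, with a median of 0.43. They were Mki67 (2.01-fold), Tk1 (1.82-fold), a locus shared by Pcna and another gene (1.72-fold) and Top2a (1.61-fold). Leaving out PBS library 1, using no filter, and quantile or TPM rescaling each ended all 4 calls, that of Top2a was lost in 10 of 14 alternatives, and all 20 loci were lower in PBS library 1 than in PBS library 2.

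In the list of GADD45 partners and stress kinases 3 of 15 loci were called higher (20.0%), 3 lower (20.0%) and 9 not, with a median of 0.11. Map2k3, a kinase that activates p38, rose 5.98-fold from 9.69 and 10.2 FPKM to 54.8 and 64.1 (log2 fold change 2.46 ± 0.23, limma adjusted p = 7.5e-10). Map2k6, the other such kinase, fell from 13.8 and 12.4 to 2.24 and 4.75 (log2 fold change -1.70 ± 0.28, limma adjusted p = 3.0e-05). Mapk14, which encodes p38 alpha, fell from 118 and 115 to 43.1 and 47.6 (log2 fold change -1.34 ± 0.22, limma adjusted p = 2.1e-05). These 3 genes were called under all 14 alternatives, and their PBS libraries differed little. Map3k1, a kinase upstream of JNK, rose 1.77-fold (limma adjusted p = 0.0074, lost with quantile or TPM rescaling and on leaving out PBS library 1 or SRBC library 2). Map3k4, the kinase bound by GADD45 proteins, lay between 1.83 and 3.07 in the 4 libraries and was not called. Ddit3 and Atf3 (a locus shared with Fam71a), named after their values were seen, were the remaining calls, as higher and lower; Atf3 measured 219 and 27.8 with PBS, against 32.2 and 24.9 with SRBC, with PBS library 1 apart. Ppp1r15a, also known as Gadd34 but unrelated to the GADD45 family in sequence, measured 102 and 32.9, then 69.4 and 74.7, and was not called.

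In the BTG and TOB family with the CCR4-NOT deadenylase, 2 of 16 loci were called higher (12.5%, near the share of all loci) and 2 lower (12.5%), with a median of 0.089. Tob1, a relative of the BTG genes, fell from 19.1 and 16.1 FPKM to 7.67 and 10.1 (log2 fold change -0.92 ± 0.25, limma adjusted p = 0.0073, lost with no filter and without SRBC library 1). Tob2 measured 30.2 and 27.6, then 39.2 and 52.0 (log2 fold change 0.63 ± 0.23, limma adjusted p = 0.047, lost in 11 of 14 alternatives, among them each that left out a library). Cnot6l, a catalytic deadenylase subunit, rose 1.88-fold (limma adjusted p = 0.0051) and Cnot10, a scaffold subunit, fell with a log2 fold change of -0.75 (limma adjusted p = 0.034). Leaving out PBS library 1 or SRBC library 2 ended both calls, as did the absence of a filter; leaving out SRBC library 1 ended that of Cnot10, and quantile or TPM rescaling that of Cnot6l. Btg3 lay between 4.45 and 6.33 in the 4 libraries and was not called.

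Of 18 tested immediate early genes 5 were called higher (27.8%) and 3 lower (16.7%), with a median of 0.23. Ier3, a survival gene of the early response, went from 21.2 and 6.46 FPKM to 71.0 and 82.0 (log2 fold change 2.59 ± 0.30, limma adjusted p = 7.2e-08). Fosl2, an AP-1 subunit, rose 3.21-fold (limma adjusted p = 4.8e-06), and Egr3 measured 20.5 and 4.71, then 41.3 and 47.8 (log2 fold change 2.03 ± 0.33, limma adjusted p = 2.9e-05, lost with no filter and with upper-quartile or quantile rescaling; 1.08 without PBS library 2). Fosb, given above, had a log2 fold change of -1.78 ± 0.36 (limma adjusted p = 4.0e-04), which was -0.69 and not called without PBS library 1, and was also not called with no filter or with median-of-ratios, upper-quartile or quantile rescaling.

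**Figure D4:**
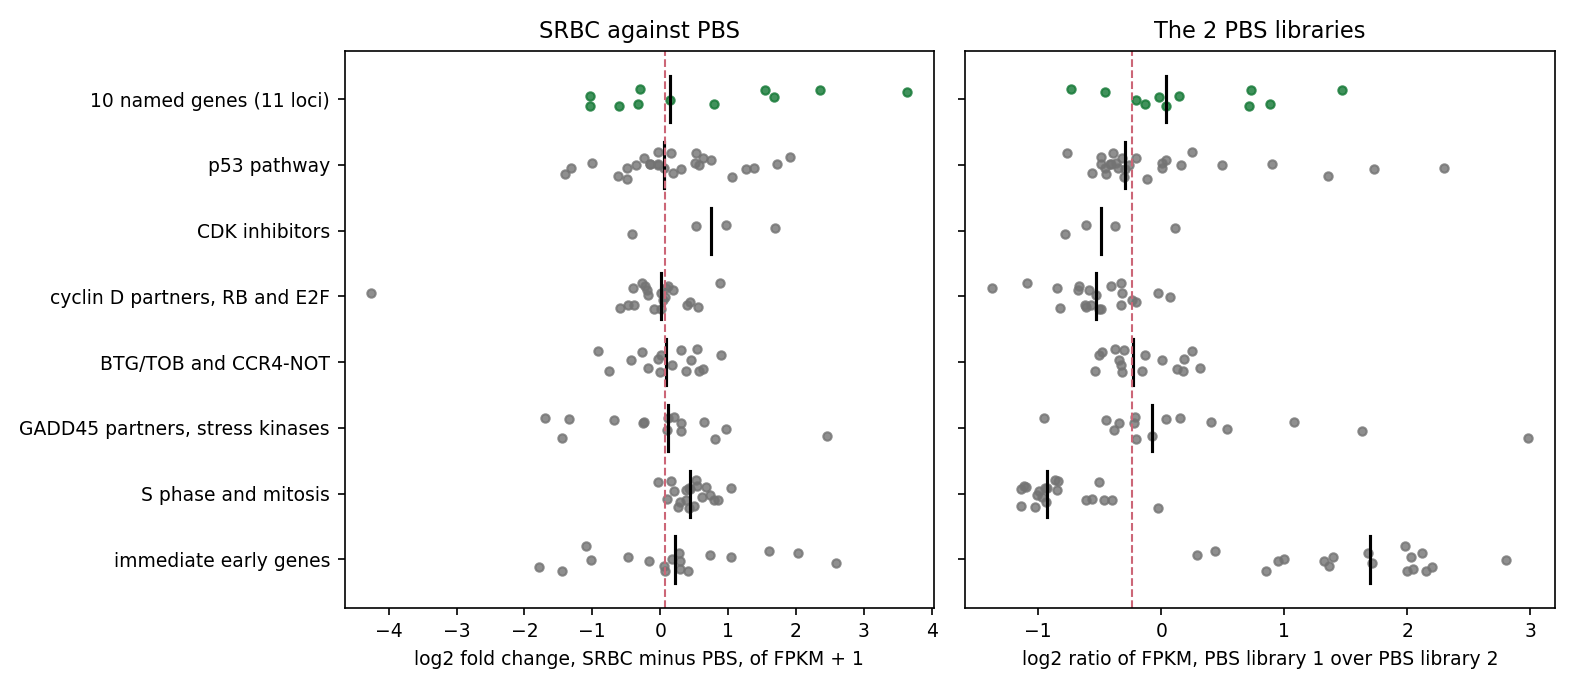
Left, log2 fold change, SRBC minus PBS in log2(FPKM + 1), of the 11 loci of the named genes (green) and of the tested loci in 7 lists (grey); right, log2 ratio of PBS library 1 to PBS library 2 for the same loci. Black lines are list medians and the dashed line is the median of all tested loci; the point near -4.25 is the locus shared by Ccnd1 and a microRNA, listed at 0 in a library, and all 18 immediate early genes lie above 0 on the right.

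For Gadd45b, Cdkn1a and Btg2 the loci with the most similar values were sought by Euclidean distance over the 4 libraries on the log2(FPKM + 1) scale. Nearest to Gadd45b were Bcl3 (distance 1.10), Nfe2l2 (1.16), Ifitm1 (1.27) and Cd274 (1.31), and Bcl3 for instance measured 52.1 and 42.4 FPKM with PBS, against 313 and 311 with SRBC. Nearest to Cdkn1a were Hs6st1 (0.39), Nudt9 (0.51), Arf2 (0.52) and Mapkapk3 (0.52). Nearest to Btg2 were 2410006H16Rik (0.65), Ifngr1 (0.65), Myadm (0.79) and Asb2 (0.93). With 4 libraries such likeness reflects mostly the level and the group difference.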

How the data were processed

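The authors deposited FPKM per locus and library, per the file headers. Reads had been handled with CASAVA, TopHat2 2.0.8b and Cufflinks 2.1.1 on mm10 (GRCm38), as listed in the submitters' processing notes. Annotation, library scaling and strand, all not given in the sources used here, could shift levels. Libraries were made from 100 ng of RNA, per the labels' protocols. The q-values of the authors' own comparison, in the same deposited table, are printed and not used.

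Here, log2(FPKM + 1) of the 11020 tested loci was fitted with limma 3.58.1 in R 4.3.3 (mean-variance trend, no covariates, Benjamini-Hochberg adjustment over all tested loci, two-sided). Residual degrees of freedom were 2 and prior ones 28.7, so the spread is largely shared across loci, and an exact permutation test of 2 against 2 libraries cannot go below p = 0.333. The median SE was 0.26. Of the tested loci 366 carry several gene names and 56 are listed at 0 in a library. Simulated data of 11020 loci for this comparison were fitted in the same way. The fit called 100% of 50 loci raised by 2 on the log2 scale and 50% of 50 raised by 1. It called 100% of 50 lowered by 2, 44% of 50 lowered by 1 and 7 of 10820 unchanged. The simulated noise was independent between loci, with spreads drawn from the fit itself and no shift between libraries. The simulation therefore does not measure the rate of false calls in these data.

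The 10 genes, the lists and the tests were chosen with earlier results of these data known. In a list, the locus with the highest mean stands for a symbol that has several. Named were the 10 genes, their close relatives, sort and sex genes, up to 4 loci per list with the smallest p, the leading marker of other cell types (given here as sums of each list) and the nearest loci of 3 genes. Libraries are numbered as in the deposited column names, and for PBS those columns could not be tied to a particular labelled sample. The deviations of same-numbered libraries from their group means had a correlation of 0.052. With 2 libraries per group this value cannot show whether the libraries were handled in pairs. Depth came from the lowest FPKM steps of single-transcript genes over 1500 bases in GENCODE M21, and gene coordinates from the same annotation. A step was used if FPKM times transcript length in kilobases was positive and under 0.165. Alternatives changed 1 choice at a time: pseudocount, filter, scaling, variance trend, each library left out, a replicate block, and autosomes only, which was added after seeing the data.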

Additional observations from a re-analysis of the deposited data

How the results depend on the processing

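Across 14 alternatives, the loci called higher (1488) and lower (683) became 751 and 184 with no filter on low values. Higher calls were 922 with quantile normalization and 629 with TPM, and lower calls 1417 with upper-quartile rescaling and 1648 with TPM. When a library was left out, higher calls ran from 679 to 1626 and lower calls from 267 to 876, the lone library being assumed to vary like the other group. Of the 11 loci of the named genes, 5 called higher became 3 with no filter and with median-of-ratios, upper-quartile or quantile rescaling, and 4 to 5 without a library. The 2 called lower became 0 with no filter and 4 with upper-quartile, quantile or TPM rescaling, and 1 to 2 without a library. Of the 121 further loci, 23 called higher became 9 with no filter, 13 with upper-quartile, 8 with quantile and 7 with TPM rescaling, and 13 to 27 without a library. The 12 called lower became 3 with no filter, and 9 to 17 without a library. The cause was not tested.

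Reversed signs, none of them in a called gene, were found for Mdm2 with upper-quartile (-0.094), quantile (-0.23) and TPM (-0.28) rescaling and, with a library left out, over a range of -0.00027 to 0.29. Gadd45a was -0.49 without PBS library 1 and 0.15 without SRBC library 1, and fell under the filter without PBS library 2 or SRBC library 2. Cdk4 was reversed with median-of-ratios (-0.083), upper-quartile (-0.23), quantile (-0.43) and TPM (-0.42) rescaling and ranged from -0.14 to 0.17 with a library left out, Mdm4 from -0.39 to 0.097, and Ppp1r15a, reversed with quantile (-0.16) and TPM (-0.13) rescaling, from -0.50 to 1.11. With the replicate block, 1684 loci were called higher and 620 lower, and 4 and 3 of the named genes' 11 loci: Btg1 was no longer called and Cdkn1b was. Whether libraries of the same number were handled together is not known (correlation 0.052), and this block result is not read as a weaker or stronger effect.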

Other observations

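PBS library 1 also differed from PBS library 2 in immediate early genes whose values are not given above. The ratio of PBS library 1 to PBS library 2 in the 18 tested immediate early genes was lowest for Myc, at 1.23, and highest for Egr1, and in the SRBC libraries 6 of the 18 were higher in library 1 than in library 2. Of other genes, Atf3 had a ratio of 7.90, Plk2 of 4.92 and Plk3 of 3.31, whereas 7 of the 15 loci of GADD45 partners and stress kinases were higher in PBS library 1, with a median ratio of 0.951. Egr1 measured 409 and 58.4 FPKM after PBS and 76.0 and 76.1 after SRBC, Jun 386 and 94.5, then 126 and 148, and Dusp1 786 and 406, then 659 and 719. These genes were chosen after their values were seen. Whether handling of the mice or of the cells had a part in this was not tested.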
